A study of Mus musculus with 28 samples.

Results

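The general transcription factor genes were taken as every row of the nascent RNA tables whose symbol starts with Taf and a digit, with Gtf2 or with Gtf3, together with Tbp. These were 47 of the 24984 genes listed: 14 genes of TFIID, 6 TAF paralogues, 4 genes of SL1, 13 genes of other Pol II factors, 3 genes of the TFII-I family, Gtf3a (TFIIIA) and 6 genes of TFIIIC. The tables come from Bru-seq: a short pulse of bromouridine (BrU) marks the RNA being made, which is then pulled down and sequenced. Mouse embryonic stem cells (mESCs) of the labelled line CCE28, WT or EloA null (lacking Elongin A, an elongation factor of Pol II), were grown on feeder fibroblasts with LIF and the 2 inhibitors of 2i medium, and depleted of the feeders before labelling. The treatment text of the labels names CJ7 cells instead. Steady-state cells received 2 mM BrU for 10 min. Recovering cells received 1 µM flavopiridol (FP), an inhibitor of the kinase that releases paused Pol II, for 60 min, were washed, and were then labelled with BrU for 5 min or 10 min. Each of the 3 conditions had 2 WT and 2 EloA null libraries, 12 in all. Each genotype is 1 labelled cell line, so line and genotype cannot be told apart. The labels do not say whether the 2 libraries of a group came from separate cultures, and p-values then measure only the spread between these libraries.

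General transcription factors place an RNA polymerase at a promoter. For Pol II, TFIID (the TATA-binding protein TBP with its associated factors, the TAFs) binds the core promoter, TFIIA and TFIIB stabilise it, TFIIF brings the polymerase, and TFIIE and TFIIH open the DNA. TFIIIA and TFIIIC bind inside Pol III genes such as those of 5S RNA and tRNAs, and SL1 serves Pol I at the ribosomal RNA genes. Several TAFs have paralogues, among them the germ-cell form TAF7L and the subunits TAF5L and TAF6L of the SAGA coactivator. Gtf2a1l is a germ-cell paralogue of the TFIIA gene Gtf2a1 and is counted with the other Pol II factors.

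Values are RPKM, reads per kilobase of length, scaled to a size for each library. The smallest steps of the values returned whole reads for at least 99.4% of checked genes when the length was that of the introns. This gives library sizes of 23138357 to 27954242 reads in steady state, 9857519 to 17272739 after 5 min and 18820698 to 28547363 after 10 min. These are the sizes used in the scaling, and they were not checked against total reads. The median member had 1045 reads per library in steady state, 371 after 5 min and 1404 after 10 min. All 10 pluripotency markers checked exceeded 0.5 RPKM in every library. Of 10 feeder fibroblast markers, 2 exceeded it in every steady-state library, led by Fn1, and their summed level was 14.7 in both WT libraries against 15.7 and 15.1 RPKM in the EloA null libraries; none of the 10 was at 0 in all libraries, and the part of feeder RNA in the results was not tested. In bulk cells a lower value can come from fewer cells of a type or from less RNA per cell, which cannot be told apart. The first steady-state library titled EloA null carries the genotype label wild type and was grouped by its title.

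Eloa, the targeted gene, was not lower in the libraries labelled EloA null. Its steady-state RPKM was 1.18 and 1.16 in WT and 1.96 and 1.89 in the EloA null libraries, so the first EloA null library lay beside the second and not beside WT. After 10 min of recovery the values were 4.65 and 6.51 in WT and 8.74 and 8.93 in EloA null. Reads summed over a gene, which here fit the length of its introns, do not show whether the deleted part is missing. The libraries are therefore called by their labels. The authors examined EloA protein in WT and EloA null cells by immunoblot, which these RNA values do not address.

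The promoters of the members with the largest and smallest recovery after FP in TFIID, the other Pol II factors and TFIIIC are shown first, because the recovery of these 6 genes sets the range described for their complexes. Each line gives the 100 bases before the annotated start of the gene (RefSeq, GRCm38.p6), 5′ to 3′ on the strand of the gene, with capitals marking matches on either strand to the letters of 4 searched motifs. The TATA box was searched for as TATAAA. The motif of NF-Y, a factor common at promoters, was spelled CCAAT. The GC box bound by Sp proteins was written GGGCGG. The motif of ETS family factors was CCGGAAG. Where matches to the same motif overlap, only the first is marked. In Taf4 a further GGGCGG match on the opposite strand, overlapping the first, therefore stays in lower case.
Tbp (chr17:15499788-15499887, plus strand): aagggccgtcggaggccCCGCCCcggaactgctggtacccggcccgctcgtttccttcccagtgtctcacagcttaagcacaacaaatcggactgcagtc
Gtf2h3 (chr5:124579048-124579147, plus strand): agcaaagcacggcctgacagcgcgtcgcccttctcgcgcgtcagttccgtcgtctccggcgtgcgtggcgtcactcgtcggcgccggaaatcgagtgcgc
Gtf3c4 (chr2:28840361-28840460, minus strand): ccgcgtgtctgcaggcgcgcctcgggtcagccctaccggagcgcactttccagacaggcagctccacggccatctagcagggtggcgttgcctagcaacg
Taf4 (chr2:179976647-179976746, minus strand): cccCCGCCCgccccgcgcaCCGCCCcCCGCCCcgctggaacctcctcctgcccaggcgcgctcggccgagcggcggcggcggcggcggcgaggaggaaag
Gtf2a1 (chr12:91590488-91590587, minus strand): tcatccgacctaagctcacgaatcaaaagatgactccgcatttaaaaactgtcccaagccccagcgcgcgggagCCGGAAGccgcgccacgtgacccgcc
Gtf3c5 (chr2:28583280-28583379, minus strand): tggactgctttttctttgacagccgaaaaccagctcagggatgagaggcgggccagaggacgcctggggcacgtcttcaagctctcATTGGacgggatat
The first 3 genes recovered most and the last 3 least. Tbp and Taf4, at opposite ends within TFIID, both held a GC box in this window, and Gtf2h3 and Gtf3c4, both at the high end, held none of the 4 motifs.

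Promoters of 43 of the 47 members were in the RefSeq table used. In the 250 bases before the start, CCGGAAG stood in 14 of them (32.6%), among them Taf3, Taf11, Gtf2f1 and Gtf3c1, against 16.3% of the promoters of genes above 0.5 RPKM in WT steady state and 7.07% of all 27025 promoters. GGGCGG was in 25 (58.1%, against 60.3% of expressed genes and 33.0% of all), CCAAT in 13 (30.2%, against 37.8% and 34.5%) and TATAAA in 6 (14.0%, against 6.01% and 13.0%). The 6 with TATAAA were Taf5, Taf13, Taf7l, Gtf2a2, Gtf2f1 and Gtf3c6. These are matches of letters, and they do not show that a factor binds.

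In steady state, 43 of the 47 genes exceeded a mean of 0.5 RPKM in WT, and their median was 2.60 RPKM, against 1.91 over all 10796 genes above that level. With the other 4 included, the member median was 2.38 RPKM. The 14 genes of TFIID kept to a narrow range of 1.09 to 3.08 RPKM in the WT mean, with medians of 2.19 and 2.06 in the WT and 2.21 and 2.21 in the EloA null libraries. The medians of the other Pol II factors were 3.32 and 3.13 in WT and 3.29 and 3.02 in EloA null. Those of TFIIIC were 2.92 and 2.91 in WT and 2.77 and 3.11 in EloA null. The TFIID medians lay below those of both other complexes in all 4 libraries, but the ranges of single genes overlapped. No test was made of these differences, because genes are not replicates.

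Within TFIID, the lowest gene in WT was Taf13, a histone-fold subunit that pairs with TAF11, at 1.12 and 1.06 RPKM in WT and 1.07 and 0.92 in EloA null. The highest was Taf10, a subunit shared with SAGA, at 3.49 and 2.68 in WT and 2.67 and 2.98 in EloA null. The Taf10 libraries spread more than those of most members, and its introns of 696 bases held 43 to 58 reads per library. Tbp (chr17:15499888-15517427), which serves all 3 polymerases, was at 2.66 and 2.77 in WT and 2.57 and 2.35 in EloA null. These groups did not overlap, but their ratio was 0.907.

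Among the other Pol II factors, Gtf2h1, the p62 subunit of the TFIIH core, was highest at 6.81 and 6.51 RPKM in WT and 7.13 and 6.12 in EloA null. Gtf2a1, the precursor of the large TFIIA subunits, followed at 5.26 and 5.43 in WT and 5.04 and 4.93 in EloA null. Gtf2h4, the p52 subunit of TFIIH, was the lowest of those above the limit, at 0.653 and 0.542 in WT and 0.665 and 0.764 in EloA null. Genes of the same complex thus stood about an order of magnitude apart in nascent RNA. In TFIIIC, Gtf3c1, the largest subunit, was highest at 5.22 and 4.61 in WT and 4.69 and 4.70 in EloA null, and Gtf3c6 was lowest at 1.42 and 1.28 in WT and 1.45 and 1.76 in EloA null.

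The genes that stood apart in level were outside these complexes. Taf1d, a subunit of SL1, was the highest member at 39.8 and 37.5 RPKM in WT and 36.0 and 31.9 in EloA null, above 99.4% of expressed genes. The RefSeq annotation places several snoRNAs on its strand within the gene, whose reads were not told apart from its own. Taf5l, of SAGA, was at 13.7 and 11.8 in WT and 12.3 and 12.8 in EloA null, while its TFIID paralogue Taf5 was at 1.38 and 1.36 in WT and 1.52 and 1.52 in EloA null. Taf6l, also of SAGA, was at 1.22 and 1.16 in WT, below Taf6 at 1.94 and 1.84.

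The remaining paralogue pairs differed in the other direction or not by much. Taf4b was at 1.74 and 1.97 RPKM in WT, against 2.57 and 2.64 for Taf4. Taf7l reached 0.081 and 0.079 in WT against 2.83 and 2.94 for Taf7, and Taf9b reached 0.135 and 0.125 against 3.22 and 2.70 for Taf9. Gtf2a1l was nearly silent, at 13 to 19 reads per steady-state library. The fourth gene below 0.5 RPKM was Gtf2ird2, of the TFII-I family, at 0.262 and 0.252 in WT and 0.401 and 0.367 in EloA null, and these groups did not overlap. Taf7 and Taf9 need care: the counted introns of Taf7 span 414 bases and held 24 to 34 reads, and Taf9 shares its whole span with Ak6 on the same strand, which was at 2.61 and 2.34 RPKM in WT.

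**Figure D1:**
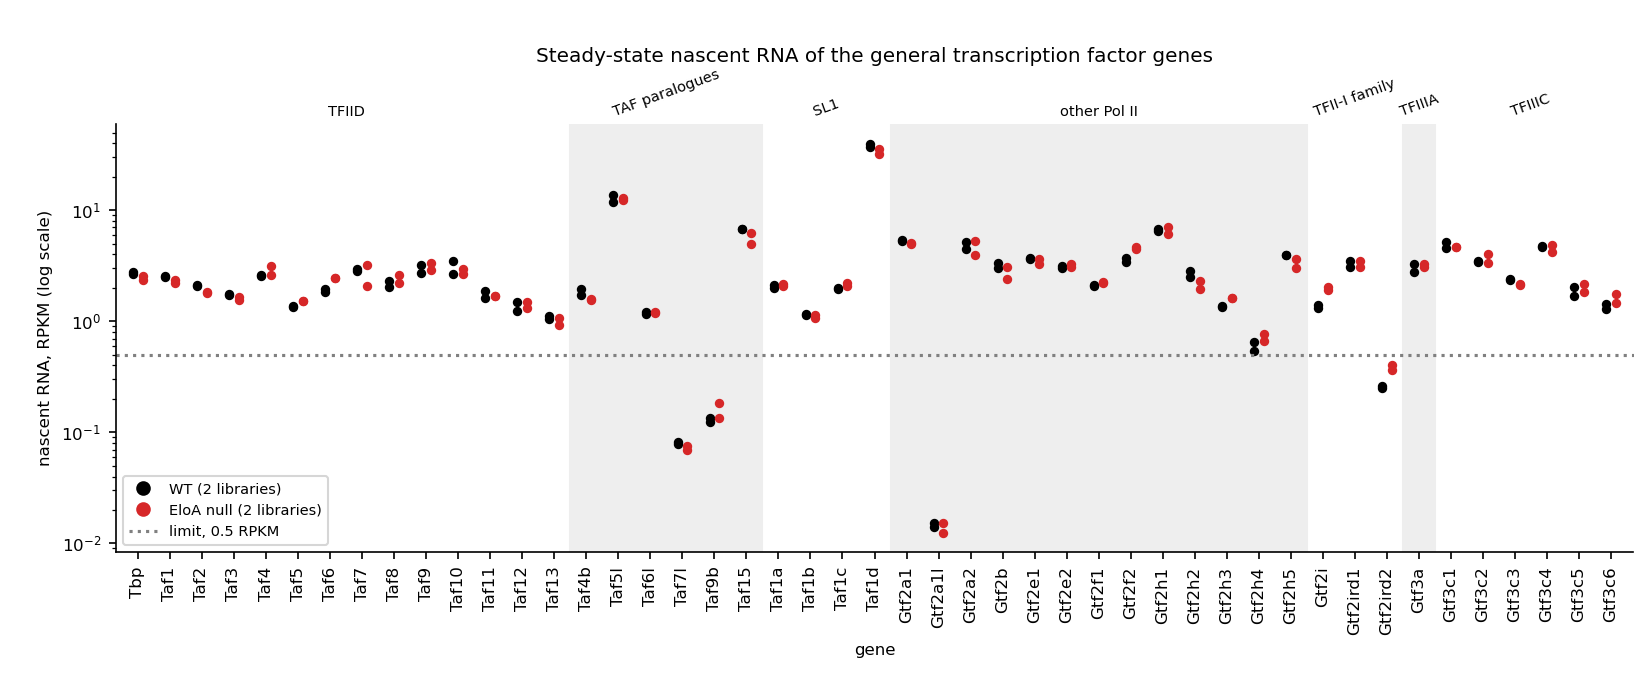
Steady-state nascent RNA of the 47 genes in RPKM on a log axis, by complex, with 1 point per library (black WT, red EloA null). TFIID stays between 1.09 and 3.08 RPKM in the WT mean, Taf1d and Taf5l lie above the rest, and Taf7l, Taf9b, Gtf2a1l and Gtf2ird2 lie below the dotted limit of 0.5 RPKM.

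The genotype comparison asks whether loss of EloA changes the nascent RNA of these genes. No member passed an adjusted p of 0.05 in any condition (limma on log2(RPKM + 0.1), Benjamini-Hochberg over all genes above 0.5 RPKM in either genotype), and 1 member, Gtf2i in 10-min recovery, passed 1.5-fold. Members tested numbered 43 in steady state, 39 after 5 min and 42 after 10 min. The lowest adjusted p among them was 0.111 (Gtf2i) in steady state, 0.496 (Taf13) after 5 min and 0.169 (Gtf2i) after 10 min. Across all tested genes the same limma test called 0% in each of the 3 conditions. At an unadjusted p below 0.05 it called 4, 2 and 5 members in the same order (9.30%, 5.13% and 11.9%), against 18.4%, 9.42% and 20.5% of all genes. With all 12 libraries in 1 fit, 1.2%, 6.21% and 3.52% of all genes were called and no member was, the lowest adjusted p among members being 0.063 (Gtf2i, 10 min). Since 2 libraries per group allow an exact permutation p no lower than 0.333, no single value was tested that way.

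Gtf2i encodes TFII-I, a multifunctional transcription factor that also gives the family its name, and lies on chr5:134237832-134317678. Its steady-state RPKM was 1.39 and 1.32 in WT and 1.93 and 2.05 in EloA null. After 5 min it was 1.00 and 0.746 in WT and 1.26 and 1.12 in EloA null, and after 10 min 0.741 and 0.729 in WT and 1.32 and 1.05 in EloA null. The EloA null libraries were higher without overlap in all 3 conditions. The ratio of means was 1.47, 1.37 and 1.61, and the log2 differences with their standard errors were 0.52 ± 0.08, 0.42 ± 0.19 and 0.61 ± 0.15 (n = 2 and 2; limma adjusted p 0.111, 0.585 and 0.169). At 10 min the count of 1 fell to 0 with libraries divided by their medians, with the GC trend removed or without the first EloA null library, and it was 3 without the first WT, 2 without the second WT and 2 without the second EloA null library. Gtf2i thus sits at the 1.5-fold limit. The other 2 genes of the family also lie on chromosome 5. Gtf2ird2 was below 0.5 RPKM in all conditions and so not tested. It was higher in EloA null without overlap in steady state (ratio 1.496) and after 10 min (0.078 and 0.077 RPKM in WT, 0.157 and 0.091 in EloA null, ratio 1.60). After 5 min its RPKM was lower without overlap (0.056 and 0.069 in WT, 0.055 and 0.043 in EloA null). Those 5-min values rest on few reads, 17 and 27 in WT and 20 and 23 in EloA null, and these counts overlap. Gtf2ird1 overlapped between genotypes in steady state (3.48 and 3.05 in WT, 3.09 and 3.51 in EloA null) and after 10 min (2.23 and 2.39 in WT, 2.57 and 2.20 in EloA null), and was lower in EloA null without overlap after 5 min (3.08 and 2.84 in WT, 2.37 and 2.52 in EloA null).

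A ratio above 1.5 was thus reached by 0 of 43 members higher and 0 lower in steady state, where 7.21% and 2.1% of all tested genes reached it. After 5 min it was 0 of 39 in both directions against 5.4% and 6.72%, and after 10 min 1 of 42 higher and 0 lower against 9.41% and 3.01%. Leaving out 1 library moved these counts. In steady state 1 member was past the limit and higher without the first WT or the first EloA null library. After 5 min 2 were higher without the first WT and 1 without the second, and lower were 1 without the second WT, 2 without the first EloA null and 3 without the second EloA null library.

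Smaller differences without overlap of the 2 and 2 libraries were common among all genes. In steady state 9 members were higher and 13 lower in EloA null (20.9% and 30.2%), against 32% and 21.4% of all genes. After 5 min 3 were higher and 12 lower (7.69% and 30.8%), against 15.4% and 25%. After 10 min 11 were higher and 8 lower (26.2% and 19.0%), against 33.5% and 21.8%. Of the 38 members tested in all conditions, Taf5, Gtf2f2 and Gtf2i were higher in all 3 (7.89%, against 8.79% of all genes), and Taf2, Taf3, Taf15, Taf1d and Gtf2a1 were lower in all 3 (13.2%, against 10.1%).

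Taf3, whose product binds the histone mark H3K4me3 and anchors TFIID, had the most negative difference after FP. Its RPKM was 1.72 and 1.76 in WT and 1.55 and 1.64 in EloA null in steady state, 2.03 and 1.78 against 1.54 and 1.10 after 5 min, and 0.774 and 0.764 against 0.548 and 0.526 after 10 min. The log2 differences were -0.12 ± 0.08, -0.51 ± 0.20 and -0.45 ± 0.14, with limma adjusted p of 0.478, 0.53 and 0.206. Taf6, a histone-fold TAF, went the other way, at 1.94 and 1.84 in WT and 2.45 and 2.46 in EloA null in steady state and 4.27 and 3.63 against 5.77 and 4.76 after 10 min. Its 5-min libraries overlapped, at 2.40 and 1.46 in WT and 2.64 and 2.21 in EloA null.

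Per complex, the median log2 difference of the genes tested was -0.08 in TFIID, -0.05 in the other Pol II factors and 0.02 in TFIIIC in steady state, against 0.03 over all genes. After 5 min these were -0.19, -0.15 and -0.07 against -0.06, and after 10 min 0.05, 0.02 and -0.01 against 0.06. Over all members the median was -0.02 in steady state and 0.05 after 10 min, against an SD between libraries of 0.04 in both. With each library centred on its own median these became -0.08 and -0.05, and without the first WT library the steady-state median became 0.05, so the sign depends on these choices. After 10 min the 6 TFIIIC genes all overlapped between genotypes, with differences from -0.03 to 0.20, and 4570 of 10241 tested genes overlapped too. In steady state 4 of the 6 overlapped, 1 was higher and 1 lower, where 5294 of 11347 genes overlapped. After 5 min all 4 tested overlapped, against 5355 of 8985 genes, and Gtf3c5, not tested there, was lower without overlap.

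**Figure D2:**
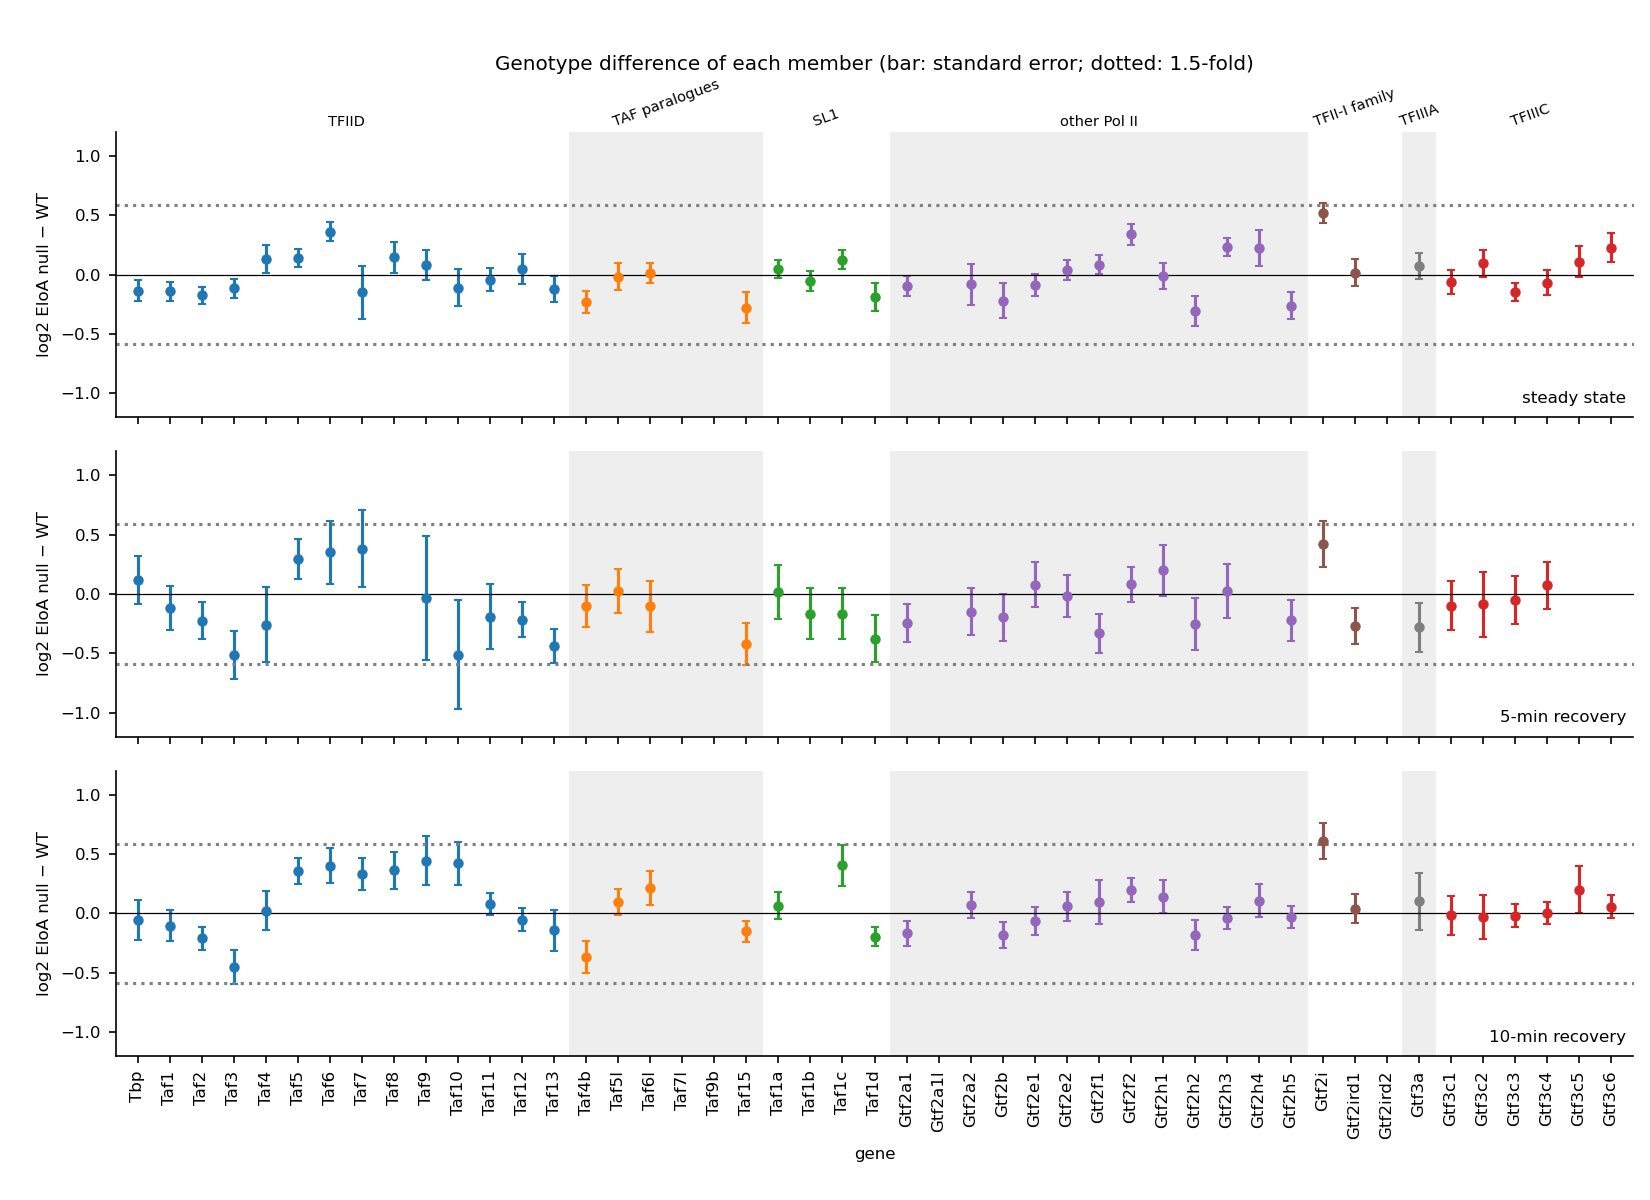
log2 difference of EloA null minus WT (log2(RPKM + 0.1)) for each member that was tested, with standard errors from limma as bars, in steady state, 5-min and 10-min recovery from top to bottom. Colours and bands mark the complexes and dotted lines 1.5-fold. Most members lie between the lines, and Gtf2i after 10 min, at 0.61, is the only one outside.

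Whether a genotype difference itself varied between conditions was tested over all 12 libraries with an interaction term. No member passed, and 0.1%, 0.00835% and 0.0919% of all genes did, for 5 min against steady state, 10 min against steady state and 10 against 5 min. The lowest adjusted p of a member was 0.715, for Gtf3c5, a TFIIIC subunit, between 5 min and steady state. Its 5-min values were 0.313 and 0.283 in WT and 0.159 and 0.199 RPKM in EloA null, below 0.5 RPKM and from 27 to 51 reads.

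In recovery from FP the members differed widely from each other, from below 0.4 to above 4 times their steady-state level after 10 min in WT. The measure is the RPKM in a recovery library over the steady-state mean of its genotype, so 1 is the steady-state level in RPKM. RPKM is scaled to a size for each library, and beyond the use of edgeR it is not stated how that size was set. The ratio is therefore not read as an amount of RNA. How the 3 tables were scaled to each other is not stated, and the labelling pulse was shorter in the 5-min samples, so ratios are compared among genes within a table and not tested. In WT, 13 of 43 members lay above 1 after 5 min and 28 of 43 after 10 min (30.2% and 65.1%), against 28.2% and 51.3% of expressed genes. The median member ratio was 0.674 after 5 min and 1.39 after 10 min, against 0.631 and 1.03. In EloA null the member medians were 0.673 and 1.44.

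By complex, the median TFIID gene was at 1.07 and 0.897 in the 2 WT libraries after 5 min, the other Pol II factors at 0.542 and 0.568, and TFIIIC at 0.585 and 0.509. After 10 min TFIID was at 1.85 and 1.93, the other Pol II factors at 1.5 and 1.31, and TFIIIC at 1.60 and 1.58. TFIID was the highest of the 3 in every WT library. Its genes were also shorter, with a median of 16.6 kb against 23.1 kb in the other Pol II factors and 21.1 kb in TFIIIC. The complexes were not compared at equal gene length. Single genes of each complex covered nearly the whole range after 10 min, from 0.394 to 4.29 in TFIID, 0.423 to 4.16 in the other Pol II factors and 0.674 to 4.36 in TFIIIC. In EloA null the order was the same after 10 min, with medians over genes of 1.95, 1.41 and 1.58 for TFIID, other Pol II factors and TFIIIC. With each library divided by its own median, the 5-min medians were 1.45, 0.834 and 0.818 in the same order.

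The gene with the largest 10-min ratio of each complex stood at more than 4 times its steady-state level in WT. Tbp stood at 4.59 and 4.10 RPKM after 5 min and 10.6 and 12.7 after 10 min in WT, a ratio of 4.29 ± 0.53 (SD, n = 2), and at 9.83 and 12.6 after 10 min in EloA null. The SD of each ratio covers the 2 recovery libraries only and leaves out the spread of the steady-state libraries. Gtf2h3, the p34 subunit of TFIIH, went from 1.37 and 1.35 in steady state to 5.48 and 5.85 after 10 min in WT (4.16 ± 0.19) and to 5.62 and 5.40 in EloA null. Gtf3c4, a TFIIIC subunit, reached 21.6 and 19.6 in WT (4.36 ± 0.30) and 20.3 and 21.0 in EloA null. The genotypes overlapped after 10 min for all 3 genes, which are 17.5 to 18.5 kb long.

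The least recovering genes are of other lengths as well as of this one. Taf4, which holds the TFIID core together and interacts with activators, was at 2.57 and 2.64 RPKM in steady state, 0.729 and 0.479 after 5 min and 1.13 and 0.921 after 10 min in WT (0.394 ± 0.056). Gtf2a1 was at 1.11 and 1.04 after 5 min and 2.37 and 2.16 after 10 min, a ratio of 0.423 ± 0.028. Gtf3c5 was at 1.43 and 1.08 after 10 min, a ratio of 0.674 ± 0.133, although its 17.0 kb are close to the length of Tbp. Other members with a WT ratio below 0.5 after 10 min were Taf1b, of SL1, at 0.400 ± 0.067, Taf3 at 0.443 ± 0.004 and Taf4b at 0.456 ± 0.028.

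**Figure D3:**
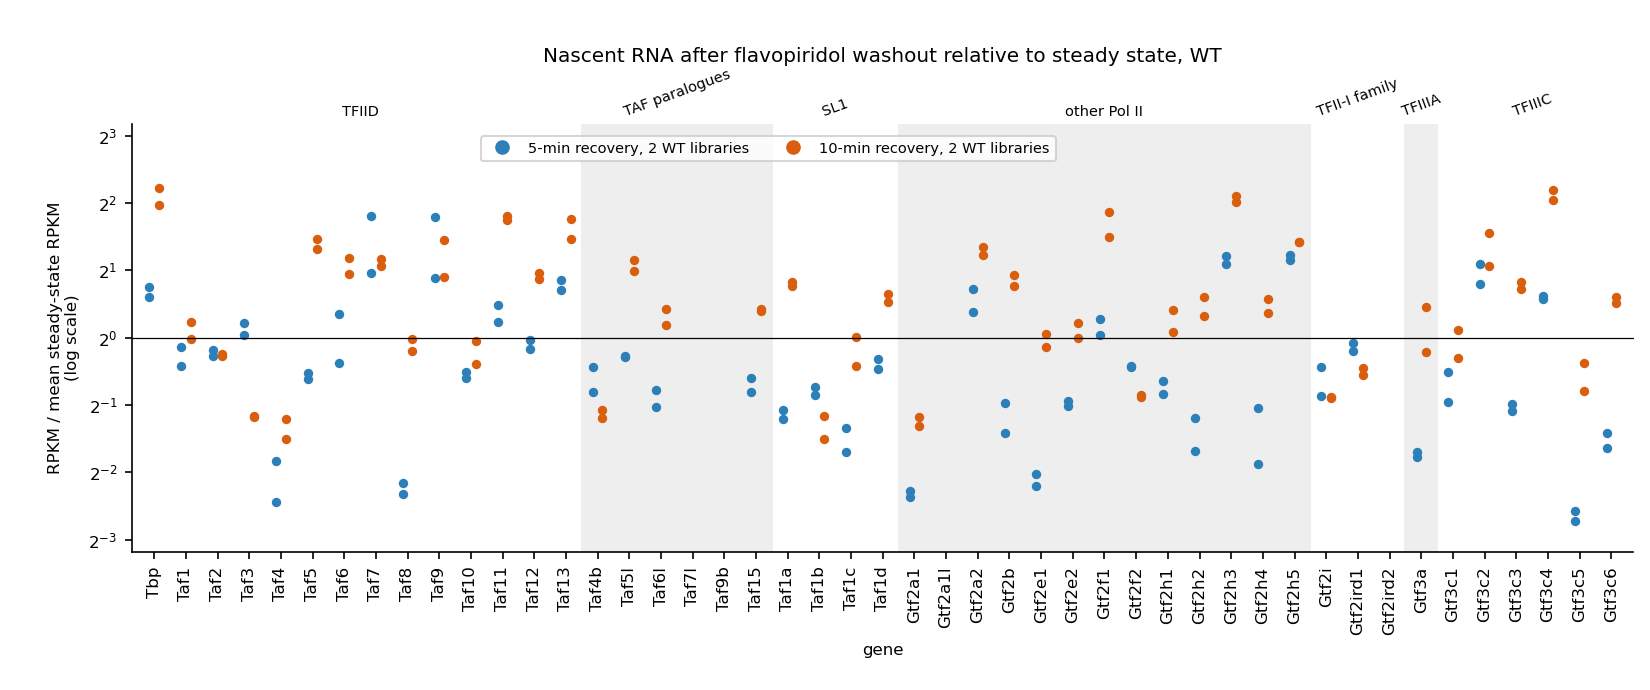
RPKM in recovery over the steady-state mean of WT for each member in the 2 WT libraries after 5 min (blue) and 10 min (orange), on a log axis, by complex. Tbp, Gtf2h3 and Gtf3c4 exceed 4 in the mean after 10 min, when Taf4, Gtf2a1 and Taf3 stay below 1.

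The ratio varied with gene length. After 10 min, Spearman's rho between ratio and gene length over the 43 members was -0.59 in WT and -0.62 in EloA null, against -0.30 over all expressed genes in both. These are correlations across genes of the same libraries and carry no p. After 5 min rho was -0.22 in WT and -0.19 in EloA null. Within the complexes in WT after 10 min it was -0.51 over 14 TFIID genes, -0.78 over 12 genes of other Pol II factors and 0.09 over 6 TFIIIC genes.

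The 10 members shorter than 10 kb had a median 10-min ratio of 2.13 in WT, against 1.23 over 3381 expressed genes of that length. This class includes Taf7, Taf10 and Gtf2h4, which rest on few reads, and Taf9, which shares its span with Ak6. The 13 members of 10 to 20 kb had 1.88, against 1.70. For 20 to 40 kb the medians were 1.36 over 8 members and 1.18 over all genes, and for 40 to 80 kb 0.890 over 8 members and 0.723. The 4 members of 80 kb or more had 0.503, against 0.637. The member median thus lay above that of all genes in each class up to 80 kb and below it in the longest, while single members lay on both sides: Gtf3c5 (0.674), Taf8 (0.930) and Gtf2a1 (0.423) were below the median of their classes, and Gtf2ird1 (0.707), at 99.2 kb, was above its own. In EloA null the 10 shortest members were at 2.53, against 1.26.

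The ratio was higher at 10 min than at 5 min in 34 of 43 members in WT and 35 of 43 in EloA null (79.1% and 81.4%), against 76.1% and 79.4% of expressed genes. It was lower at 10 min in all 4 members of 80 kb or more (Taf3, Taf4b, Gtf2f2 and Gtf2ird1), without overlap of the libraries in WT. Most expressed genes of that length did the same: 1109 of 1454 were lower without overlap in WT. By the mean, 19.1% of them were higher at 10 min in WT. Taf3 went from 1.17 and 1.02 times its steady-state level to 0.445 and 0.440. Gtf2f2, the smaller TFIIF subunit, went from 0.737 and 0.743 to 0.542 and 0.556. The 13 members of 10 to 20 kb and the 8 of 20 to 40 kb were all higher at 10 min in both genotypes, against 95.4% and 93.9% of expressed genes of those lengths in WT and 95.8% and 95.0% in EloA null.

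**Figure D4:**
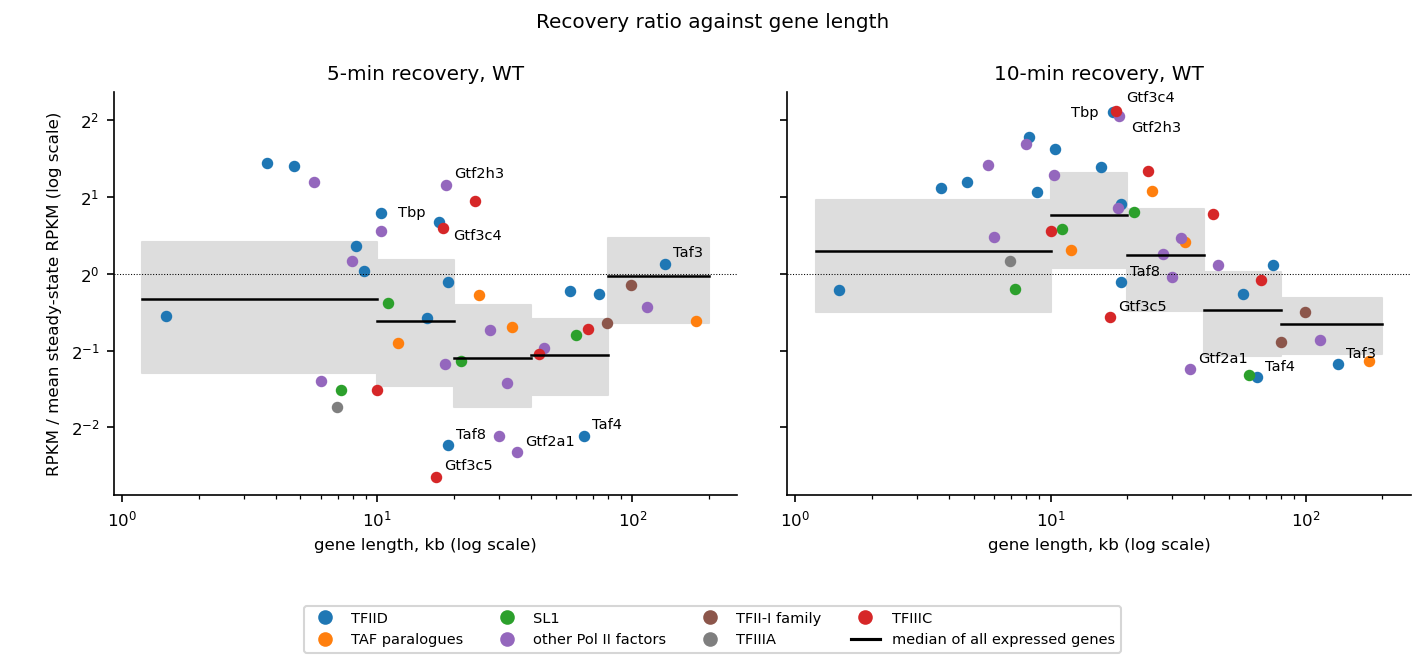
Recovery ratio in WT (mean of 2 libraries, log axis) against gene length in kb (log axis) after 5 min and 10 min. Points are members coloured by complex, black lines the median of all expressed genes in 5 length classes and grey the middle 50% of them. After 10 min Tbp, Gtf3c4 and Gtf2h3 sit together at the top near 18 kb, and the 4 longest members lie below 1.

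A second list holds 20 other initiation genes that the rule does not take: the remaining TFIIH subunits and its kinase (Ercc2, Ercc3, Cdk7, Ccnh, Mnat1), TBP relatives and regulators (Tbpl1, Tbpl2, Btaf1, Dr1, Drap1), Pol III factors (Brf1, Brf2, Bdp1), the SNAPc genes, and the Pol I factors Ubtf and Rrn3. None passed an adjusted p of 0.05 with limma, and 2, 0 and 3 had an unadjusted p below it in steady state, after 5 min and after 10 min, where 18.4%, 9.42% and 20.5% of all genes had. Of 19 tested in steady state, 2 passed 1.5-fold, both higher in EloA null: Snapc2, a SNAPc subunit, at 0.986 and 0.932 RPKM in WT and 1.63 and 1.44 in EloA null, and Drap1, a subunit of the repressor NC2, at 0.493 and 0.633 in WT and 0.872 and 0.842 in EloA null. None passed it in recovery. Of all tested genes, 7.21% were past it and higher and 2.1% lower in steady state. These shares were 5.4% and 6.72% after 5 min, and 9.41% and 3.01% after 10 min. Without overlap, 3 were higher and 8 lower in EloA null of 19 tested in steady state, 0 and 5 of 17 after 5 min, and 4 and 8 of 19 after 10 min, beside the shares of all genes given above for the members (32% and 21.4%, 15.4% and 25%, 33.5% and 21.8%). Mnat1, at 162 kb the longest of these genes, went from 2.01 and 2.46 RPKM after 5 min to 0.897 and 1.10 after 10 min in WT.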

How the data were processed

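Bru-seq libraries of WT and EloA null mESCs were used as deposited. The authors aligned paired-end reads to mm10 and dm3 with Bowtie2 2.3.4.3, kept unique reads and separated strands with SAMtools, counted reads over RefSeq genes with featureCounts 1.6.1 and deposited edgeR RPKM values for each library, 1 table per condition. The authors describe counts over whole genes, whereas the values fit intron lengths. Mean columns were not used, and strand use in counting and scaling between tables are not given in the sources used here. Not used here were 16 samples of CUT&RUN-seq or ChIP-seq. The members and lists were chosen with earlier results of these data known.

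Reads per library and gene were recovered from the steps of the RPKM values with intron lengths from RefSeq GRCm38; 45 of 47 members were whole within 0.05 reads in all 12 libraries (Taf1 and Taf1a were not). Library sizes, as used in the scaling, were 9857519 to 28547363 reads. Genes above a mean of 0.5 RPKM in either genotype were tested within 1 table with limma 3.58.1 (R 4.3.3, intensity trend, log2(RPKM + 0.1), Benjamini-Hochberg), and the interaction with all 12 libraries. A member counted as past 1.5-fold by the ratio of mean RPKM. Alternatives were the pseudocount, the RPKM limit, library centring, removal of length and GC trends, a replicate block, all libraries in 1 fit and leaving out each library. Named genes were Eloa, Tbp, the highest and lowest members of TFIID, the other Pol II factors and TFIIIC by level and by 10-min ratio, those past a threshold, the paralogue pairs and the members under the limit. Promoters were those of the most upstream RefSeq start. Scripts were tested on simulated data.

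Others named in the text (Taf3, Taf6, Taf8, Gtf2ird1, Gtf2f2, Taf1d, Taf1b, Snapc2, Drap1, Mnat1 and the genes without overlap in all conditions) were chosen after their values were seen.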

Additional observations from a re-analysis of the deposited data

How the results depend on the processing

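Of 135 alternative values of 18 results, 103 stayed within 1.5 times (counts) or within 1 SD between libraries (medians). No called value changed sign; 2 medians near 0 that carry no call did. No member passed an adjusted p of 0.05 under any alternative, leaving out each library included (0 to 0 in every condition).

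Members past 1.5-fold higher in EloA null were 0 in steady state (1 with the length trend removed; 0 to 1 leaving out a library), 0 after 5 min (2 with no RPKM limit; 0 to 2) and 1 after 10 min (3 with no RPKM limit, 0 with libraries divided by their median, 0 with the GC trend removed; 0 to 3). Members lower were 0 in steady state (0 to 0), 0 after 5 min (2 with no RPKM limit; 0 to 3) and 0 after 10 min (1 with libraries divided by their median; 0 to 0). The cause was not tested.

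The median log2 difference of the members was -0.02 in steady state (-0.077 centred; -0.074 to 0.053 leaving out a library), -0.12 after 5 min (-0.18 to -0.035) and 0.05 after 10 min (-0.048 centred; 0.013 to 0.072). Median WT ratios after 5 min were 0.975 for TFIID (1.45 with libraries divided by their median; 0.897 to 1.07), 0.555 for other Pol II factors (0.60 above 1 RPKM, 0.51 with no limit, 0.834 divided; 0.542 to 0.568) and 0.547 for TFIIIC (0.818 divided; 0.509 to 0.585). After 10 min they were 1.99 (1.87 divided; 1.85 to 1.93), 1.39 (1.31 to 1.5) and 1.59 (1.5 divided; 1.58 to 1.60).

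With the replicate number as a block, 0 members were called in each condition. Replicate differences of WT and EloA null correlated at 0.10, 0.12 and 0.10 over genes; 2 pairs cannot show that the numbers pair the libraries. Depth limits Taf7, Taf10, Taf7l, Taf9b, Gtf2a1l and Gtf2h4, which rest on few reads, most in the 5-min libraries, and Gtf2ird2 in the 5-min libraries.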
